A study of Mus musculus with 2 samples.

Results

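The nuclear receptors Nr0b1, Nr5a2, Nr6a1, Nr2f1, Nr2f2, Nr2f6, Nr2e1, Nr4a2 and Thra, known from pluripotent or neural cells, were taken by their symbols from tables of 29311 genes, and each of the 9 was found. They are 9 of the 49 nuclear receptors of the mouse, of which 48 are listed.

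Nuclear receptors are transcription factors that share a DNA-binding domain of paired zinc fingers and, at the other end of the protein, a pocket that in many of them holds a hormone or another small lipid. Those without a known ligand are called orphan receptors, and they recruit corepressors or coactivators according to the cell they work in. In pluripotent cells Nr0b1 (Dax1) and Nr5a2 (Lrh1) belong to the network around Oct4, and Nr6a1 (germ cell nuclear factor) is known as a repressor of Oct4 in differentiating cells. In the embryonic brain the COUP transcription factors Nr2f1 and Nr2f2 pattern the forebrain and the ventral and vascular territories, Nr2f6 is their relative, and Nr2e1 (Tailless) keeps neural progenitors dividing. Nr4a2 (Nurr1) specifies dopaminergic neurons, and Thra encodes the thyroid hormone receptor alpha.

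Total RNA was depleted of rRNA and sequenced from wild-type E14 ES cells, a cultured cell line (isolated in Trizol), and from wild-type E10.5 forebrain of B6CBAF1/J embryos (isolated in Trizol LS). The methods of the study describe forebrain RNA as isolated from single embryos, and how many embryos the library holds is not given in the sources used here. There was 1 library per cell type and no replicate. Strain, culture and reagent therefore cannot be told apart from cell type, no test over samples exists, and every difference given here is between 2 libraries. Because the forebrain was sampled as bulk tissue, fewer cells of a type and less RNA per cell cannot be told apart.

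The values are the RPKM that the authors deposited, reads per kilobase of exon scaled to library size, with 1 value per gene and library. They carry a further scaling. In ES cells they are 52.2 times the RPKM recomputed from the inferred reads on genes, and in forebrain 49 times, so their size is not that of RPKM in general use. Most low values (59.5% in ES cells, 62.4% in forebrain) fell within 0.05 of whole multiples of what 1 read is worth. From this worth, 42773609 reads on genes were inferred in ES cells and 59789863 in forebrain, and the reads given per gene are such estimates. Ranges in parentheses after a level are 95% exact Poisson intervals of those reads. Ranges after a ratio are 95% exact Clopper-Pearson intervals. Both cover counting error only. The markers of each labelled cell type were found in its library. All 7 pluripotency markers were at least 2-fold higher in ES cells, with a summed RPKM of 39922 there and 159.9 in forebrain. All 7 listed markers of forebrain neuroepithelium were higher in forebrain, where they summed to 6325 compared with 27.9 in ES cells, and Sox1 is not listed. Of 7 neuronal markers, 6 were higher in forebrain and Stmn2 in ES cells (6910.3 and 1056). The forebrain library also held RNA of other cells of the head, which is taken up beside the receptors that it touches.

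The DNA contacted by a nuclear receptor depends on a short stretch at the base of the first zinc finger, the P-box, and its coding sequence shows how the members differ. A scan of the annotated coding sequences for the cysteine spacing of the first finger found it in 8 of the 9 members. It was not found in Nr0b1, a receptor known to lack this domain, which acts on other receptors instead. The 18 bases shown here run 5′ to 3′ over the 6 codons from the third cysteine of the finger on, read from the NCBIM37 transcripts. Capitals mark the 4 codons whose amino acid differs between members.
Nr5a2: tgcGAAAGCtgcAAGGGT
Nr6a1: tgcGAGGGCtgcAAGGGG
Nr4a2: tgtGAGGGCtgcAAAGGT
Thra: tgtGAGGGCtgcAAGGGC
Nr2f1: tgcGAGGGCtgcAAAAGT
Nr2f2: tgcGAGGGCtgcAAGAGC
Nr2f6: tgcGAGGGCtgcAAGAGT
Nr2e1: tgcGACGGCtgcTCCGGA
Nr6a1, Nr4a2 and Thra encode the same residues there, and so do the COUP factors Nr2f1, Nr2f2 and Nr2f6, with other bases. Nr5a2 and Nr2e1 each have a P-box of their own among the members.

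Over the 198 bases of the DNA-binding domain from the first cysteine on, Nr2f1 and Nr2f2 were 91.4% identical, and 65 of 66 encoded residues were the same. Nr2f6 shared 58 of 66 residues with Nr2f1 and 59 with Nr2f2. Such likeness could mix reads between the genes, so every window of 50 bases in the members' exons was searched in the NCBIM37 genome on both strands. Only 10 of 4458 windows of Nr2f1 occurred elsewhere, all in Nr2f2. In Nr2f2 it was 52 of 4667 windows, of which 31 were of low complexity. The share was highest in Nr5a2 (2.57% of its windows, most of them matching within Cacna1c) and was 0 in Nr0b1, Nr6a1, Nr2f6 and Thra. Matched exactly, windows of this length thus told the COUP factors apart along nearly all of their exons. Matches with mismatches, which an aligner can allow, were not searched.

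Nr0b1, Nr5a2 and Nr6a1 were the members higher in ES cells. Nr0b1 (chromosome X, 83437103 to 83441286, plus strand, NCBIM37) had an RPKM of 2357 in ES cells from 3490 reads (2280 to 2437) and of 35.8 in forebrain from 79 reads (28.3 to 44.6). It was the highest nuclear receptor in ES cells and stood at percentile 94 of all listed genes there, compared with 44.4 in forebrain. Its level was 65.9-fold higher in ES cells (52.7 to 83.4).

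Nr5a2 (chromosome 1, 138740161 to 138857004, minus strand), which binds DNA as a monomer, had an RPKM of 641 in ES cells from 2013 reads (613 to 669) and of 6.26 in forebrain from 29 reads (4.15 to 8.89). The ratio was 102-fold (71.8 to 155), at rank 247 of the 29311 genes ordered by log2 ratio from the ES cell side. Nr0b1 held rank 318 in that order. The intervals of both ratios overlap, and with a pseudocount of 5 or with RPKM recomputed from the inferred reads the log2 ratio of Nr0b1 was the larger (5.86 and 4.74, compared with 5.84 and 3.56 for Nr5a2). Per length, Nr0b1 was 3.68 times as abundant as Nr5a2 in ES cells (3.48 to 3.89).

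For Nr6a1 (chromosome 2, 38578890 to 38783208, minus strand), an RPKM of 992 was measured in ES cells from 6095 reads (967 to 1017) and of 82.0 in forebrain from 751 reads (76.2 to 88.1). It was thus 12.1-fold higher in ES cells (11.2 to 13.1), at rank 1305. Alone among these 3 genes, it kept a level above the median gene of the forebrain library, which was 62.4. The ES cell library thus held transcripts of Nr0b1 and Nr5a2, which are known to act with Oct4, together with those of a known repressor of it. Per length, Nr6a1 was 1.55 times as abundant as Nr5a2 there (1.47 to 1.63).

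**Figure D1:**
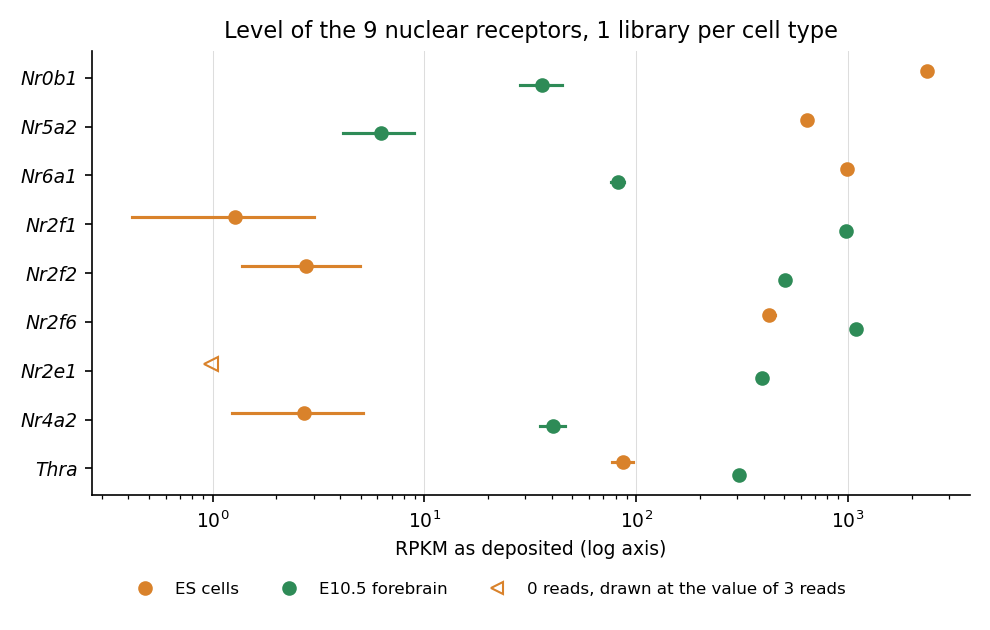
RPKM as deposited (log axis) of the 9 receptors in ES cells (orange) and forebrain (green), 1 library each, with lines for exact Poisson 95% intervals where these are wider than the point. Nr0b1, Nr5a2 and Nr6a1 lie to the right in ES cells, the other 6 in forebrain, and Nr2e1, with 0 reads in ES cells, is drawn as an open triangle at the value of 3 reads (0.987).

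Promoter windows were the 250 bases before a RefSeq start (GRCm38.p6), placed in NCBIM37 by an exact match. They were used for 8 members at 11 starts (Thra had none). The hexamer AGGTCA, the core that most nuclear receptors recognise, was searched in them on both strands. It was found in 3 of the 11 windows, those of Nr0b1, Nr5a2 and Nr6a1 shown here. These are the members higher in ES cells, and no window of the other 5 members held it. Of all 32851 RefSeq windows, 14% hold it. The 3 member windows that hold the hexamer are shown, and its split between the members was not tested. They are written 5′ to 3′ on the strand of the gene, with AGGTCA or its reverse complement in capitals. A match is a description of these letters and not a site of binding.
Nr0b1, chrX:83436864-83437113, plus strand: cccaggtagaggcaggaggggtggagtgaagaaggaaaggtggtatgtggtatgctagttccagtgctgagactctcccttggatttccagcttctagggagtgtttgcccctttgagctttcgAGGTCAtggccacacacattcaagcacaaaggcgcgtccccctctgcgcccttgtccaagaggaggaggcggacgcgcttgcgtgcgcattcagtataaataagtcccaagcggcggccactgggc
Nr5a2, chr1:138857026-138857275, minus strand: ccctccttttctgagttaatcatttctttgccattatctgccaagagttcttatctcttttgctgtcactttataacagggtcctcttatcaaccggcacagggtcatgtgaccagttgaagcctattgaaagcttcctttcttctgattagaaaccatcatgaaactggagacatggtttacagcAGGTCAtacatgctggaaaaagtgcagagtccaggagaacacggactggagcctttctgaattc
Nr6a1, chr2:38640036-38640285, minus strand: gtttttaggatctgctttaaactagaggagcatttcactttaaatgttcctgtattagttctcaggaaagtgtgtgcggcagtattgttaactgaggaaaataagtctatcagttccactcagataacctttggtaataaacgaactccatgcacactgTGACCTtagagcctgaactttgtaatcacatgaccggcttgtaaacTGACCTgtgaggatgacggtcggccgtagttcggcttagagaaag
The first base of the match lies 126 bases before the start in Nr0b1, 64 in Nr5a2, and 91 and 45 in Nr6a1. The match of Nr6a1 at 91 is also one of AAGGTCA, which contains AGGTCA and is in 4.08% of all windows. The Nr0b1 window reaches 11 bases into the annotated first exon, that of Nr5a2 ends 21 bases before the annotated gene, and that of Nr6a1 lies inside the gene, 143173 bases from its annotated start and in an intron except for 5 bases. The other windows of Nr5a2 and Nr6a1, at a further start each, do not hold the hexamer. In Nr0b1 a TATAAA lies 32 bases before the start (in 12.4% of all windows). Its reverse complement begins 181 bases before the start in the Nr5a2 window shown and 164 in that of Nr4a2, a member higher in forebrain. The GC content of the Nr0b1, Nr5a2 and Nr6a1 windows was 57.2%, 43.2% and 42%, and the median of all windows was 52.4%.

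The other 6 members were higher in forebrain. Nr2e1 (chromosome 10, 42281769 to 42303438, minus strand) had 0 reads in ES cells and an RPKM of 393 in forebrain from 1782 reads (375 to 412). The interval of its 0 reads reached an RPKM of 1.214 in ES cells, while a floor of 3 reads stands at 0.987. Set against that floor, the level of Nr2e1 was 398-fold higher in forebrain. The exact interval of the ratio starts lower, at 324-fold. In forebrain Nr2e1 took place 8 among the nuclear receptors. Among the members, only Nr2e1 had no read in a library.

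Its promoter window is shown as that of a member higher in forebrain. It holds neither AGGTCA nor AAGTCA, the hexamer that Nr2e1 itself is known to recognise (in 13.1% of all windows). Among the members, AAGTCA was found only in the other Nr5a2 window, 23 bases before its start. The capitals mark TGACGTCA, a palindrome recognised by factors of the cyclic AMP response, which was in no other member's window and is in 1.55% of all windows.
Nr2e1, chr10:42303397-42303646, minus strand: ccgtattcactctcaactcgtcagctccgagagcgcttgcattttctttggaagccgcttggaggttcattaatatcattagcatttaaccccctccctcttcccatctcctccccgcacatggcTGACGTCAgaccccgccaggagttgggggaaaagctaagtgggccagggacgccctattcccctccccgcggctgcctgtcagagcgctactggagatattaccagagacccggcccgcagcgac
The palindrome begins 125 bases before the start, and the last 42 bases of the window lie in the annotated first exon.

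Nr2f1 (COUP-TFI, chromosome 13, 78328234 to 78339018, minus strand) had an RPKM of 1.28 in ES cells from 5 reads (0.417 to 3.00) and of 983 in forebrain from 5706 reads (958 to 1009). The ratio of 768-fold towards forebrain (328 to 2358) rests on few reads in ES cells, and placed the gene at rank 34 of the 29311 genes from the forebrain side. Nr2e1 held rank 40. A lincRNA, A830082K12Rik, shares 103 bases of exon with it on the other strand and had the same direction (RPKM 1.39 in ES cells, 171 in forebrain). A further lincRNA, Gm8327, overlaps by 20 bases and was at 0 and 342. The overlaps cover 2.17% and 0.421% of the exons of Nr2f1.

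Nr2f2 (COUP-TFII, chromosome 7, 77496832 to 77511621, minus strand) had an RPKM of 2.76 in ES cells from 11 reads (1.38 to 4.94) and of 504 in forebrain from 2992 reads (486 to 522). It was 183-fold higher in forebrain (102 to 366). In forebrain Nr2f1 was 1.95 times as abundant as Nr2f2 per length (1.87 to 2.04). In ES cells the counts could not order them, as the ratio of Nr2f1 to Nr2f2 was 0.464 with an interval of 0.127 to 1.45.

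Nr2f6, their COUP-like relative, was well above both in ES cells. Nr2f6 (chromosome 8, 73898022 to 73905859, minus strand) had an RPKM of 426 in ES cells from 1040 reads (400.2 to 452) and of 1089.7 in forebrain from 3969 reads (1056 to 1124), a ratio of 2.56-fold (2.39 to 2.74). It was the highest nuclear receptor in forebrain and took place 8 in ES cells. The interval sets it just above Nr2f1 in forebrain (1.11 times, 1.06 to 1.15). These values carry a limit, as 1622 bases, or 54.4% of the exons of Nr2f6, overlap exons of Ocel1 on the other strand. Ocel1 had an RPKM of 145 in ES cells and 235 in forebrain. Whether the authors' counting used the strand is not given in the sources used here, and without it the reads of both genes cannot be told apart.

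Nr4a2 (chromosome 2, 56959241 to 56976414, minus strand) had the lowest forebrain level of the members that were higher there. Its RPKM was 2.71 in ES cells from 9 reads (1.24 to 5.14) and 40.3 in forebrain from 200 reads (35.0 to 46.4), a ratio of 14.9-fold (7.70 to 33.1). In forebrain it could not be ordered against Nr0b1 (1.12 times, 0.865 to 1.48), while Nr5a2 was lower than both. The RPKM recomputed from its inferred reads was 0.824 in forebrain and 0.0518 in ES cells, and on that scale its log2 ratio with a pseudocount of 1 was -0.79, within 2-fold.

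Thra (chromosome 11, 98601952 to 98630320, plus strand) was present in both libraries, with an RPKM of 86.3 in ES cells from 326 reads (77.2 to 96.2) and of 306 in forebrain from 1723 reads (292 to 321). It was 3.55-fold higher in forebrain (3.15 to 4.00). Its 3′ end overlaps Nr1d1 (Rev-erb alpha, a receptor of the circadian clock) on the other strand by 263 bases, or 5.7% of its exons, and Nr1d1 had the opposite direction, with 45.1 in ES cells and 25.8 in forebrain. The other thyroid hormone receptor, Thrb, was low in both (4.61 and 14.2), so that Thra exceeded it 18.7 times in ES cells (12.5 to 29.3) and 21.6 times in forebrain (17.9 to 26.5).

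In ES cells the order from high to low was Nr0b1, Nr6a1, Nr5a2, Nr2f6, Thra, Nr2f2, Nr4a2, Nr2f1 and Nr2e1. The intervals separated neighbours down to Thra and Nr2f2. Neighbours among the last 4 were not separated, while the intervals set both Nr2f2 and Nr4a2 above the 0 reads of Nr2e1. In forebrain the order was Nr2f6, Nr2f1, Nr2f2, Nr2e1, Thra, Nr6a1, Nr4a2, Nr0b1 and Nr5a2, and of these neighbours only Nr4a2 and Nr0b1 were not separated.

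All 9 members differed at least 2-fold on log2(RPKM + 1), 3 towards ES cells and 6 towards forebrain. Of all listed genes, 23.3% were at least 2-fold higher in ES cells and 25.8% in forebrain. With at least 10 inferred reads asked for in either library, which all members passed, these shares were 20.6% and 27.8%. At a limit of 4-fold, 3 and 4 members passed, where 11.3% and 14.4% of all listed genes passed in each direction. The median log2 ratio of ES cells over forebrain was -1.81 over the members and -0.01 over all genes. Without Nr2f1, Nr2f6 and Thra, whose exons overlap a gene on the other strand, the members' median was 0.05. As the members were put together with results of these data known, these counts are a description only.

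**Figure D2:**
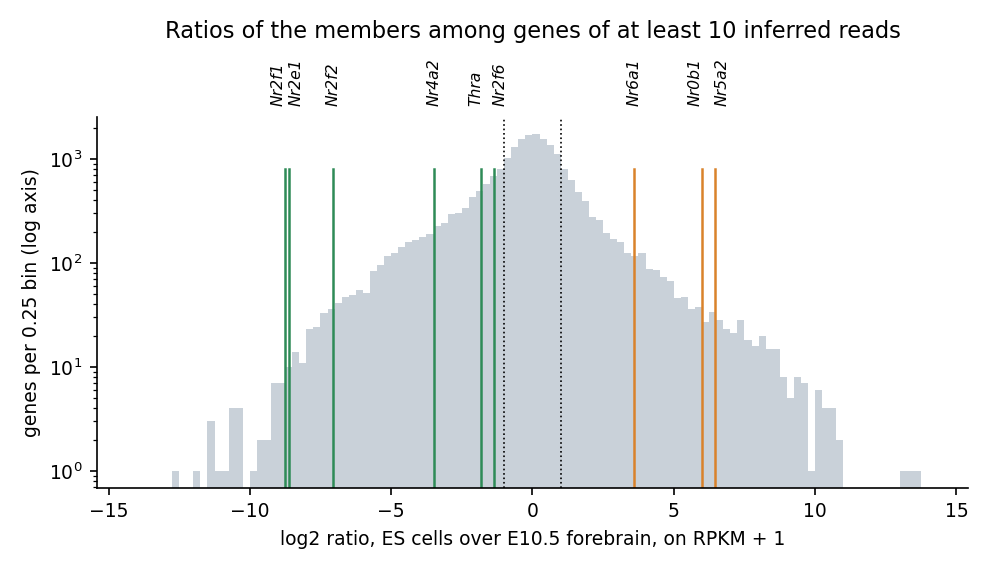
Number of genes (log axis) by log2 ratio of ES cells over forebrain on RPKM + 1, for genes of at least 10 inferred reads in either library, with lines for the 9 members and dotted lines at 2-fold. Nr2f1, Nr2e1 and Nr2f2 lie beyond -7 at the thin left edge, Nr0b1 and Nr5a2 beyond 6 on the right, and Thra and Nr2f6 just outside the left dotted line.

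Inside the introns of Nr6a1, some transcripts of the other strand were higher in forebrain, opposite to the receptor. Gm13507, a non-coding transcript in an intron, had an RPKM of 27.4 in ES cells from 18 reads and of 647 in forebrain from 633 reads. The nearby Mir181b-2 was at 68.6 and 755 from 5 and 82 reads, whereas Mir181a-2, beside it, rested on 6 reads in either library. None of these shares an exon with Nr6a1.

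Set among the whole superfamily, the members held 43.2% of the summed RPKM of nuclear receptors in ES cells and 42.2% in forebrain. With 3 reads or more there were 41 receptors in ES cells and 45 in forebrain. Of the 48, 10 receptors were at least 2-fold higher in ES cells and 17 in forebrain, beside 23.3% and 25.8% of all listed genes. With RPKM recomputed from the inferred reads, 5 and 8 receptors passed this limit. Of the 29311 listed genes, 2394 and 3370 passed it then, compared with 6829 and 7559 on the deposited values. Among the 39 listed receptors outside the members, 7 and 11 passed on the deposited values, and 21 lay within 2-fold. Next to Nr0b1 in ES cells was Esrrb, an orphan receptor of naive pluripotent cells, at 2140.4 and 5.01. Nr0b1 exceeded it by 1.10 times there (1.06 to 1.14). Hnf4a, a receptor of liver and visceral endoderm, had 77.7 in ES cells and 0 reads in forebrain.

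In forebrain the retinoic acid receptor Rarb lay between Nr2f1 and Nr2f2, at 837 compared with 8.34 in ES cells, while Rarg leaned the other way (614 in ES cells, 358 in forebrain). Rxra and Rxrb, the partners with which Thra and the retinoic acid receptors bind DNA, were ample in both (249 and 676 in ES cells, 632 and 756 in forebrain), and Rxrg was low (2.92 and 21.4). Several close relatives of members had another direction or level. Nr5a1 (Steroidogenic factor 1) was at 0 in ES cells and 4.73 in forebrain, opposite to Nr5a2. Nr4a1 was 3.15-fold higher in ES cells (125 and 39.7), opposite to Nr4a2, and Nr4a3 was at 0.20 and 3.97. The testicular receptors Nr2c1 and Nr2c2 were found in both libraries (62.3 and 452 in ES cells, 187 and 618 in forebrain), and Nr2e3, the photoreceptor relative of Nr2e1, was at 2.17 and 0.61. Nr0b2, the relative of Nr0b1, is not listed and was taken as 0 in both.

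**Figure D3:**
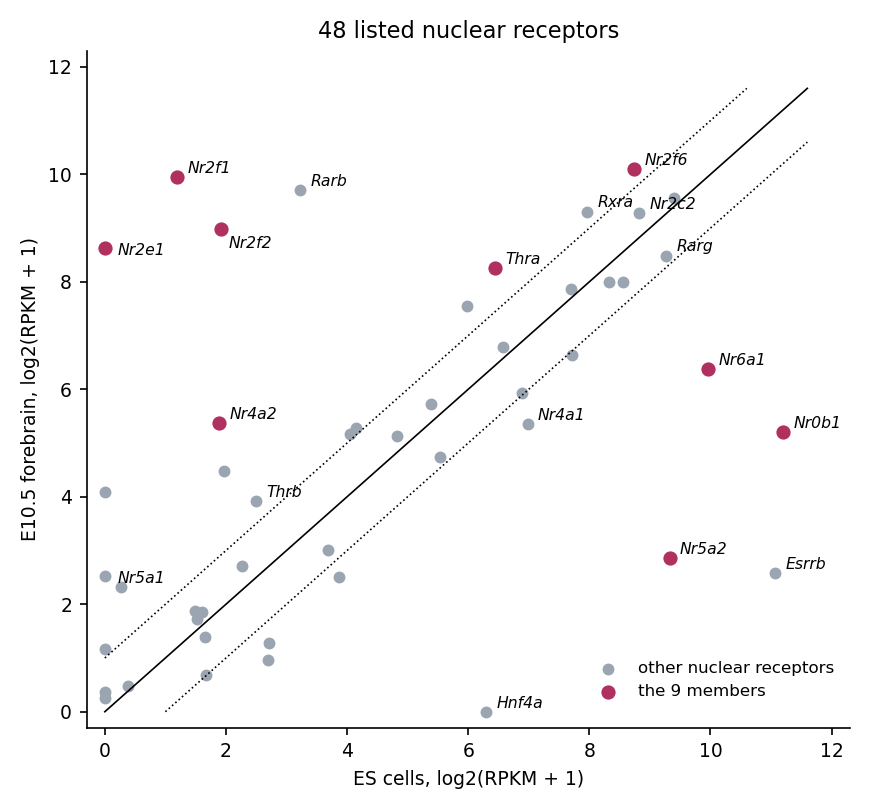
The 48 listed nuclear receptors by log2(RPKM + 1) in ES cells (horizontal) and forebrain (vertical), members in red and others in grey, with the diagonal and dotted lines at 2-fold. Nr0b1, Nr5a2 and Nr6a1 lie far below the diagonal together with Esrrb and Hnf4a, and Nr2f1, Nr2f2 and Nr2e1 far above it together with Rarb.

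Genes linked to the receptors were taken up by lists. Their counts stand beside the 23.3% of all listed genes that were at least 2-fold higher in ES cells and the 25.8% in forebrain. Of 11 partners and targets in pluripotent cells, all 11 were at least 2-fold higher in ES cells (median log2 ratio 6.28). Oct4 (Pou5f1), the gene that Nr6a1 is known to repress and that Nr5a2 is known to sustain, was at 11244 in ES cells and 42.9 in forebrain, and Zfp42 reached 11505 and 58.9. The widest ratios were those of Tfcp2l1 (741-fold), Nanog (544-fold) and Esrrb (427-fold). Sox2, which neural progenitors also use, had the smallest, 2.76-fold.

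Of 17 corepressors, 9 were at least 2-fold higher in forebrain and 0 in ES cells (median log2 ratio -1.03). The largest ratios were those of Bcl11a and Bcl11b, zinc finger proteins known to bind COUP factors (1.02 and 2.26 in ES cells, 131 and 118 in forebrain), followed by Zfpm1 (7.34-fold). The atrophins Atn1 and Rere, corepressors of Nr2e1, were 2.29-fold and 2.77-fold higher in forebrain. Kdm1a, a histone demethylase that works with Nr2e1, differed little and was among the most abundant (5639 and 4367), and Ncor1 also lay within 2-fold (679 and 512). Of 12 coactivators, 3 were at least 2-fold higher in forebrain, namely Ppargc1a (0 and 15.3), Ncoa7 (58.8 and 150.3) and Ncoa2 (81.2 and 202), and 1, Ncoa3, in ES cells (1492 and 488.5). The median log2 ratio was -0.49, and 25.8% of all listed genes were higher in forebrain by the same limit, about the share of these coactivators.

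Genes that handle thyroid hormone or respond to it lay on both sides, 5 of 12 at least 2-fold higher in ES cells and 7 in forebrain (median log2 ratio -1.33). Of all listed genes, 23.3% and 25.8% were. These counts include Dio1 (4 reads in ES cells, 0 in forebrain) and Ttr (0 in ES cells, 2 in forebrain). The intervals of their ratios reach both directions. Crym, which binds the hormone in the cytosol, was at 60.3 in ES cells and 2407 in forebrain. Dio2, which activates the hormone, and Dio3, which inactivates it, were both higher in forebrain (0.84 and 15.5 for Dio2, 7.22 and 47.2 for Dio3). The response genes Klf9 (1724 and 24.1) and Hr (23.6 and 2.13) were higher in ES cells, opposite to Thra itself.

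Among 12 dopaminergic neuron genes linked to Nr4a2, 9 were at least 2-fold higher in forebrain and 1, Ddc, in ES cells (median log2 ratio -1.77). Of all listed genes, 25.8% and 23.3% were. Aldh1a1 (0.89 and 166) and Lmx1a (1.08 and 174) had the widest ratios. Th, the enzyme that defines these neurons, was at 12.1 and 102, while the dopamine transporter Slc6a3 (2.83 and 3.56) and Pitx3 (0 and 1.56, from 3 reads) were low in both. Pitx3 is among the 9, though the interval of its ratio reaches both directions. As Nr4a2 is also an immediate early gene, 12 of these were looked at. Of them, 5 were at least 2-fold higher in ES cells and 4 in forebrain (median log2 ratio 0.31), beside 23.3% and 25.8% of all listed genes. Jun (61.3 and 920.3), Fosb (1.95 and 47.8) and Nr4a3 were higher in forebrain, and Arc (155 and 11.5), Junb (615 and 126) and Nr4a1 in ES cells. The part of an early response in the level of Nr4a2 was not tested.

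Forebrain patterning genes, which act with the COUP factors and Nr2e1, were at least 2-fold higher in forebrain in 11 of 12 cases (median log2 ratio -5.49), Fgf17 being the exception with 83.2 and 157. Otx2 (78.5 and 989) and Lhx2 (0 and 877) had the highest forebrain levels of the list. Of 9 genes linked to Nr2e1, 2 were at least 2-fold higher in ES cells and 3 in forebrain (median log2 ratio -0.09), shares near those of all listed genes (23.3% and 25.8%). Cdkn1a, a cell cycle inhibitor that Nr2e1 is known to repress, was 14.6-fold higher in ES cells (373 and 25.6). Wnt7a, which Nr2e1 is known to activate, was at 4.81 and 171. Gfap and S100b, markers of astrocytes, were below 5 in both libraries.

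**Figure D4:**
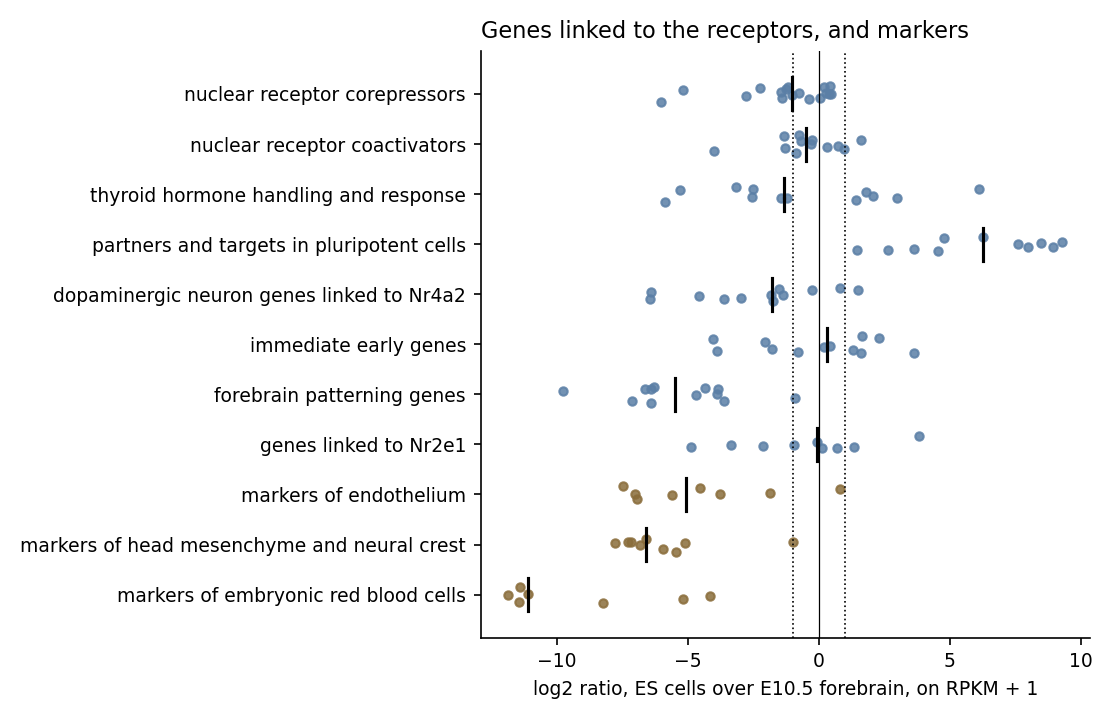
log2 ratio of ES cells over forebrain on RPKM + 1 for the genes of 8 lists linked to the receptors (blue) and of 3 marker lists of other cells (brown), 1 point per gene with a bar at the median and dotted lines at 2-fold. The pluripotency list lies to the right (median 6.28), the forebrain patterning list (-5.49) and the markers of endothelium (-5.07), head mesenchyme (-6.61) and red blood cells (-11.09) to the left.

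Markers of other cells of the head were measured beside the receptors, since Nr2f1 and Nr2f2 are also known from mesenchyme and Nr2f2 from veins. Of 9 markers of head mesenchyme and neural crest, 8 were at least 2-fold higher in forebrain, at 131.9 to 3037 there, and Sox10 was at 9.90 in ES cells and 20.7 in forebrain. All 9 summed to 8591 in forebrain and 78.4 in ES cells. Pdgfra reached 1796, Twist1 1556 and Foxc1 565. Of 8 endothelial markers, 7 were higher in forebrain, at 75.4 to 1669 there. Ephb4 of veins had the highest forebrain level of these but was also at 462 in ES cells, a ratio of 3.61-fold. Pecam1 was at 551 in ES cells and 316.5 in forebrain. All 8 summed to 3880 in forebrain and 1067 in ES cells. All 7 markers of embryonic red blood cells were higher there as well, at 138 to 367633. No marker of these 3 lists was at 0 in either library. The part of these cells in the levels of Nr2f1, Nr2f2, Nr2e1, Nr2f6, Nr4a2 and Thra was not tested. In ES cells, the endoderm markers Sox17, Gata4, Gata6, Foxa2 and Afp were at 0.59 to 3.12 RPKM, next to the 641 of Nr5a2, which endoderm also expresses. Hnf4a, of visceral endoderm, was at 77.7 in ES cells and Eomes, of endoderm and mesoderm, at 90.1. The part of such cells in the level of Nr5a2 was not tested. T, a marker of early mesoderm, was at 1112 in ES cells and 2.66 in forebrain. Of all 8 markers of endoderm and mesoderm, 3 were higher in ES cells and 5 in forebrain.

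Genes with the pattern most like that of a member were sought as the 3 protein-coding genes nearest in log2(RPKM + 1) over the 2 libraries, a likeness that rests on 2 points only. For Nr0b1 these were Rnf17, Spint1 and Fam25c (distance 0.302 to 0.562), and for Nr5a2 Liph, Gjb5 and Gm14124 (0.179 to 0.215). Cbr3, Cldn4 and Slc7a7 were nearest to Nr6a1 (0.184 to 0.190). Nr2f1 had Fat4 and Nell2 among its nearest (0.272 and 0.412), and Nr2f2 had Foxc1, Ptx3 and Tbx2 (0.175 to 0.276). Nearest to Nr2e1 were Pou3f2 and Myt1, at 0 in ES cells as well, and Igf1 (0.052 to 0.175). Trim44, Apool and Usp46 matched Nr2f6 (0.019 to 0.046), Tnfaip2 and Arhgap20 were among those of Nr4a2 (0.077 each), and Zfp282 and Frmd6 among those of Thra (0.087 and 0.115).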

How the data were processed

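The authors aligned the reads of rRNA-depleted, strand-specific libraries to NCBIM37 with the pipelines of HTSstation (Bowtie 0.12.7 in the submitters' processing notes) and deposited 1 RPKM per gene and library. Read length is 100 bases per the labels and 50 per the methods, and neither the scaling of the values nor the use of strand in counting is given in the sources used here. These RPKM values were used as deposited. Coordinates and exonic lengths came from the GENCODE annotation of NCBIM37, with which the starts (after adding 1) and ends of all 29311 genes matched. What 1 read is worth was estimated on genes of up to 2500 bp of exon, as 1.221 RPKM x kb in ES cells and 0.819 in the forebrain library. Within 0.05 of whole multiples lay 59.5% of 5446 and 62.4% of 5156 low values. Reads per gene were inferred from it and rounded. Ratios are on log2(RPKM + 1), which understates changes of low genes, or, as folds, on the RPKM itself. With 1 sample per group no p-value was computed.

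The 9 members and all lists were chosen with earlier results of these data known. Named were all members, some relatives and neighbours fixed by name, in each list up to 3 genes of the widest ratio per direction and up to 2 of the highest level, genes overlapping members, and the 3 nearest genes. Others named in the text were chosen after their values were seen. Some genes that the rule names are not reported here. Alternatives covered pseudocounts of 0.1 and 5, other scalings, limits, filters and lengths. The scripts were tested on simulated data. Python 3.11.15, numpy 2.4.6, pandas 2.3.3, scipy 1.17.1 and matplotlib 3.10.9 were used.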

Additional observations from a re-analysis of the deposited data

How the results depend on the processing

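None of the 45 alternative log2 ratios of single members changed direction. With RPKM recomputed from the inferred reads, the values are so much smaller that the pseudocount of 1 weighs more, and the log2 ratio of Nr4a2 shrank to -0.79, inside 2-fold, which left 5 members higher in forebrain. Under the other pseudocounts and scalings, 3 members were at least 2-fold higher in ES cells and 6 in forebrain. The limit of 4-fold gave 3 and 4. The median log2 ratio of the members was -2.085 with scaling by the column sum, which lowered the median of all genes by 0.248, and -1.345 with RPKM recomputed from reads. Without Nr2f1, Nr2f6 and Thra, whose exons overlap a gene on the other strand, it was 0.053, as 3 members of each direction were left. Of the nuclear receptors, 27 were at least 2-fold apart, but 13 with RPKM recomputed from reads and 14 at 4-fold. The counts over all listed genes fell as well. They were 6829 towards ES cells and 7559 towards forebrain, but 2394 and 3370 with recomputed RPKM, and 3324 and 4222 at 4-fold. With the longest transcript in place of all exons as the length, the inferred reads fell outside their counting intervals in 9 of 18 cases, for Thra in ES cells at 173 in place of 326. No paired analysis was possible because each cell type has 1 sample and no replicate. The floor was set at 3 reads, an RPKM of 0.488 to 2.03 for the members in ES cells at this depth. Levels below it are given where reads were found, but rest on too few reads to be relied on.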
